A study of Homo sapiens with 6 samples.

Results

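The Eph receptors are the receptor tyrosine kinases of cell contact. The members described here were taken by symbol: EPHA1, EPHA2, EPHA3, EPHA4, EPHA7, EPHB1, EPHB2, EPHB3, EPHB4 and EPHB6, which are 10 of the 20494 genes in the deposited table and 10 of the 14 Eph receptor genes in it. Of the 10 members, 5 are EphA and 5 are EphB receptors. The other Eph genes were at the bottom of the scale in all 6 libraries, where EPHA5 was listed at 0, EPHA6 reached 0.0191 RPKM, EPHA8 0.0288 RPKM and EPHA10 0.0205 RPKM.

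Eph receptors bind ephrins on the surface of a neighbouring cell. EphA receptors mainly bind ephrin-A ligands, which hang from a lipid anchor, and EphB receptors mainly bind ephrin-B ligands, which span the membrane. A contact can signal into both cells. The pathway is known for repulsion and sorting of cells at tissue boundaries, for axon guidance and for the separation of arteries from veins. In the crypts of the mouse intestine, EphB2 and EphB3 are known to depend on beta-catenin and TCF, the transcription complex that Wnt ligands switch on.

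RNA was sequenced from PA-1, an established line from a human ovarian teratocarcinoma, in 6 libraries with 1 library for each group. The Wnt3a group was given 200 ng of the Wnt3a ligand for 16 h. The RIPK1, RIPK2, RIPK3 and RIPK4 groups were each transfected for 48 h with 8 µg of a plasmid for that receptor-interacting protein kinase, and the Vector group with 8 µg of empty pCDNA3.1 for 48 h. Whether a plasmid was also given to the Wnt3a cells is not stated in the labels, so ligand, plasmid and time cannot be told apart in that comparison. All groups shared the same parent line and medium, and no library was repeated, so no value has a spread between replicates and no difference was tested. Intervals in parentheses are exact 95% binomial intervals on reads, which cover counting error only and compare libraries, not conditions.

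The library totals behind the values lay between 17.2 M and 19.5 M reads. The transfected kinases stood above Vector in their own libraries. RIPK1 was at 16.6 RPKM in the RIPK1 library against 12.8 RPKM in Vector, and RIPK2 at 27.4 RPKM in the RIPK2 library against 11.8 RPKM in Vector. RIPK3 was at 61.4 RPKM in the RIPK3 library and RIPK4 at 17.9 RPKM in the RIPK4 library, and both were listed at 0 in Vector. AXIN2, a feedback inhibitor of Wnt signalling, was at 35.1 RPKM in the Wnt3a library and 27.8 RPKM in the RIPK4 library, against 14.7 RPKM in Vector, and between 14.1 and 16.7 RPKM in the other libraries. Of 11 markers of pluripotent embryonal carcinoma cells, 8 had a mean RPKM of at least 1, among them SOX2 and LIN28A, while TDGF1 was at 0 and NANOG and ZFP42 stayed below 0.3 RPKM. No haematopoietic marker of 6 had a mean of 1. Of the fibroblast markers 5 of 7 had (DCN at 0), of the endothelial 5 of 6, of the epithelial 2 of 6 (KRT8 and KRT18), and of the neural and glial 2 of 6 (OLIG2 at 0).

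Before the values, the promoter windows of 3 receptors are shown from RefSeq, on GRCh38.p14, each running from 250 bases before to 50 bases after the gene's start, 5′ to 3′ along the gene's strand. EPHA3 had the widest spread over the libraries among the members, EPHB3 was the member at least 2-fold above Vector in the Wnt3a library, and EPHA2 was the member with 2 copies of the short TCF/LEF core in 1 window. Capitals mark that core, CTTTG or its reverse complement CAAAG, and the E-box CANNTG, the letters read by basic helix-loop-helix factors. The windows lie at chr3:89107371-89107670 on the plus strand for EPHA3, at chr3:184561535-184561834 on the plus strand for EPHB3 and at chr1:16156020-16156319 on the minus strand for EPHA2.
EPHA3: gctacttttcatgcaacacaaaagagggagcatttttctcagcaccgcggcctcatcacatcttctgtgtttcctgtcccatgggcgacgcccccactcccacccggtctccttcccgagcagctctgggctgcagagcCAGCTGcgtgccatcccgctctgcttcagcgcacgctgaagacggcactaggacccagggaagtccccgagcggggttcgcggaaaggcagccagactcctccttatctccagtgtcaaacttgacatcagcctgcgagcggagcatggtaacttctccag
EPHB3: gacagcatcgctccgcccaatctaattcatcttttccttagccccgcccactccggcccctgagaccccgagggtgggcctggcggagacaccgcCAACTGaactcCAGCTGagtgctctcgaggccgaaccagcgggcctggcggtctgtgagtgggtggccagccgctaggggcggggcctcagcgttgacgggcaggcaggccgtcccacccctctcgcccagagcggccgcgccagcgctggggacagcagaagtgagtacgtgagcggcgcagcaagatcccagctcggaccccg
EPHA2: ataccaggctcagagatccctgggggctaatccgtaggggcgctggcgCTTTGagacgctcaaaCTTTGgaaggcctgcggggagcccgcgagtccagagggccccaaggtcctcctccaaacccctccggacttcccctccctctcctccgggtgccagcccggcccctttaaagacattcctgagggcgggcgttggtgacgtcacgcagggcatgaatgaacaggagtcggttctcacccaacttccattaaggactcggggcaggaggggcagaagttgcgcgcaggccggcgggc
EPHA2 has 2 matches to CTTTG and no E-box, EPHB3 has 2 E-boxes and no CTTTG, and EPHA3 has 1 E-box and no CTTTG. Over the 10 members, RefSeq gave 14 windows, of which 4 held CTTTG on either strand (1 of EPHA2, 1 of EPHA4 and 2 of EPHA7). In RefSeq's set of 35116 promoter windows, 47.5% held it. The longer core CTTTGAT was in no member's window and in 2.62% of all windows. An E-box was in 8 of the 14 windows, against 68.7% of all windows. All motifs were searched on both strands; a CTTTGAT match is also a CTTTG match, and CTTTG and the E-box cannot overlap. The EPHA3 window held 17 CpG pairs, the EPHB3 window 26 and the EPHA2 window 20, and the median over all windows was 14.0. A match of letters is a description of the window and was not set against any binding data.

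Levels are given as RPKM, reads per kilobase of gene after scaling to the library's total. That scaling does not remove the trend on transcript GC content described below, which differed between libraries. In the Wnt3a library EPHA2 and EPHB4 led, at 22.3 and 21.8 RPKM. EPHA1 at 14.1 and EPHB2 at 12.6 RPKM followed, then EPHA3 at 7.29, EPHA7 at 6.97, EPHA4 at 4.9 and EPHB3 at 3.53 RPKM. In the Vector library the order was another one, with EPHA1, EPHB4, EPHA3 and EPHA7 close together at 17.9, 17.7, 17.4 and 16.2 RPKM. There EPHA2 came after them at 12.8 RPKM, with EPHB2 at 7.03, EPHA4 at 3.9 and EPHB3 at 1.26 RPKM. These are bulk libraries, in which fewer cells with a receptor and less receptor RNA per cell cannot be told apart.

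**Figure D1:**
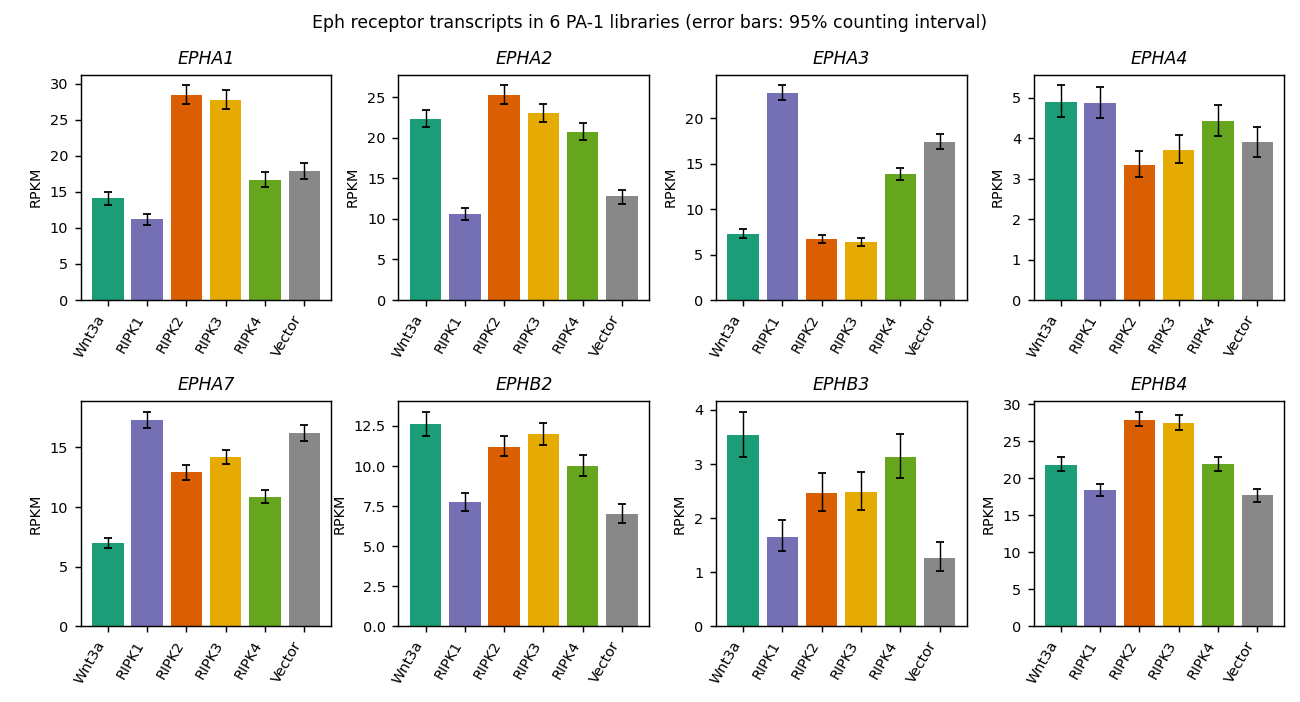
RPKM (vertical axes, from 0) of the 8 Eph receptors with a mean RPKM of at least 1, with 1 bar for each library and error bars for the 95% counting interval. EPHA3 is lowest in Wnt3a, RIPK2 and RIPK3, EPHA1 is highest in RIPK2 and RIPK3, and EPHA4 lies between 3.35 and 4.9 RPKM throughout.

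EPHA3, a receptor for ephrin-A5 known from work on the mapping of retinal axons and on heart valve formation, varied most. It was at 7.29 RPKM in Wnt3a, 22.8 in RIPK1, 6.69 in RIPK2, 6.39 in RIPK3, 13.8 in RIPK4 and 17.4 in Vector, from 814 to 2966 reads. Wnt3a, RIPK2 and RIPK3 were low, and between them RIPK3 was below Wnt3a beyond counting error, with a ratio of 0.877 (0.796 to 0.965). RIPK1 and Vector were high, and RIPK4 lay between. Against Vector, EPHA3 was 2.39-fold lower in Wnt3a (2.2 to 2.58), 2.6-fold lower in RIPK2 (2.4 to 2.82) and 2.72-fold lower in RIPK3 (2.51 to 2.96). The difference was smaller in RIPK4, 1.26-fold lower (1.18 to 1.35), and in RIPK1 EPHA3 stood 1.31-fold higher (1.24 to 1.39). Between the ends of the order, EPHA3 was 3.56-fold lower in RIPK3 than in RIPK1 (3.3 to 3.86). The summed pluripotency markers were also lower in those 3 libraries, at 523 RPKM in Wnt3a, 439 in RIPK2 and 476 in RIPK3, with 736 in RIPK1, 616 in RIPK4 and 675 in Vector. Of the 8 markers averaging 1 RPKM or more, 6 were below Vector in Wnt3a, 3 in RIPK1, 7 in RIPK2, 6 in RIPK3 and 5 in RIPK4. The 2 that reached 2-fold were SOX2, a core pluripotency factor, and PRDM14, a germline and stem cell regulator. SOX2 was at 48.1 RPKM in Wnt3a, 133 in RIPK1, 63.2 in RIPK2, 68.5 in RIPK3, 78.1 in RIPK4 and 149 in Vector. PRDM14 was at 25.2 RPKM in Wnt3a, 70.3 in RIPK1, 36.1 in RIPK2, 35.0 in RIPK3, 44.9 in RIPK4 and 56.8 in Vector. SALL4 went the other way, at 49.1 RPKM in Wnt3a, 40.3 in RIPK2 and 40.4 in RIPK3, against 37.7 in Vector. POU5F1, also on the list, was above Vector in Wnt3a at 13.2 RPKM and in RIPK3 at 17.2 RPKM. In RIPK2 it equalled Vector after rounding. The part of these markers in the EPHA3 values was not tested.

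EPHA7, a forebrain receptor whose truncated form promotes adhesion during closure of the neural tube in the mouse, was likewise low in the Wnt3a library but not in the same libraries otherwise. It was at 6.97 RPKM in Wnt3a, 17.3 in RIPK1, 12.9 in RIPK2, 14.2 in RIPK3, 10.8 in RIPK4 and 16.2 in Vector. Each step in that order was larger than counting error, although RIPK1 stood 1.06-fold above Vector with an interval that began at 1.0 after rounding. EPHA7 was 2.33-fold lower in Wnt3a than in Vector (2.15 to 2.51) and 1.5-fold lower in RIPK4 (1.4 to 1.6). RIPK2 and RIPK3, in which EPHA3 was also low, had 1.84-fold (1.7 to 1.99) and 2.04-fold (1.89 to 2.2) more EPHA7 than Wnt3a.

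EPHA1, the receptor after which the family was named and known from epithelia, showed another order. It was at 14.1 RPKM in Wnt3a, 11.2 in RIPK1, 28.4 in RIPK2, 27.8 in RIPK3, 16.7 in RIPK4 and 17.9 in Vector. RIPK2 and RIPK3 were high and within counting error of each other, RIPK4 and Vector likewise, and Wnt3a and RIPK1 were low. Against Vector EPHA1 was 1.59-fold higher in RIPK2 (1.48 to 1.72) and 1.56-fold higher in RIPK3 (1.44 to 1.68). It was 1.27-fold lower in Wnt3a (1.16 to 1.39) and 1.6-fold lower in RIPK1 (1.45 to 1.76). In GENCODE annotation 82 bases of EPHA1 exons (1.73%) overlap exons of ZYX on the opposite strand. ZYX, a focal adhesion gene, was at 140.5 RPKM in Wnt3a, 108 in RIPK1, 222 in RIPK2, 202 in RIPK3, 166 in RIPK4 and 150.4 in Vector. Strand use in counting is not given in the sources used here, so reads from that stretch cannot be told apart.

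EPHA2, the main ephrin-A1 receptor of epithelia, was at 22.3 RPKM in Wnt3a, 10.6 in RIPK1, 25.3 in RIPK2, 23.1 in RIPK3, 20.7 in RIPK4 and 12.8 in Vector. Wnt3a, RIPK2, RIPK3 and RIPK4 were all high, and RIPK1 and Vector were low. EPHA2 was 1.75-fold higher than Vector in Wnt3a (1.61 to 1.9), 1.98-fold higher in RIPK2 (1.83 to 2.15), 1.81-fold higher in RIPK3 (1.67 to 1.96) and 1.62-fold higher in RIPK4 (1.49 to 1.76). In RIPK1 it was 1.2-fold lower (1.09 to 1.33). EPHA4, which binds ligands of both classes and is known for repelling motor axons, varied least among the 8 receptors with a mean of at least 1. It was at 4.9 RPKM in Wnt3a, 4.87 in RIPK1, 3.35 in RIPK2, 3.72 in RIPK3, 4.43 in RIPK4 and 3.9 in Vector, with no wide step between neighbours. It stood 1.26-fold above Vector in Wnt3a (1.11 to 1.42) and 1.25-fold in RIPK1 (1.1 to 1.41), and its ratio to Vector in RIPK2 was 0.858 (0.75 to 0.982). Between its ends, RIPK2 against Wnt3a, the ratio was 0.682 (0.601 to 0.774). An antisense gene overlaps 4.67% of the EPHA4 exons.

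Among the EphB receptors, EPHB2, EPHB3 and EPHB4 were all above Vector in every other library in value, with intervals that included 1 for EPHB2 and EPHB4 in RIPK1. EPHB3, which in the mouse keeps Paneth cells at the crypt base, was the scarcest of the 3. It was at 3.53 RPKM in Wnt3a, 1.66 in RIPK1, 2.47 in RIPK2, 2.48 in RIPK3, 3.13 in RIPK4 and 1.26 in Vector, which rests on 276 reads in Wnt3a and 92 in Vector. Wnt3a and RIPK4 were highest and within counting error of each other, RIPK2 and RIPK3 were in the middle, and RIPK1 and Vector were lowest. Its ratio to Vector was 2.79 in Wnt3a (2.2 to 3.58), 2.48 in RIPK4 (1.94 to 3.18), 1.95 in RIPK2 (1.52 to 2.53), 1.96 in RIPK3 (1.53 to 2.54) and 1.32 in RIPK1 (1.0 to 1.73).

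EPHB2, which acts at synapses and in crypt positioning, was at 12.6 RPKM in Wnt3a, 7.76 in RIPK1, 11.2 in RIPK2, 12.0 in RIPK3, 10.0 in RIPK4 and 7.03 in Vector. Wnt3a, RIPK2 and RIPK3 were high, with RIPK2 below Wnt3a beyond counting error at a ratio of 0.891 (0.819 to 0.97), and RIPK4 was lower. Its ratio to Vector was 1.79 in Wnt3a (1.62 to 1.99), 1.6 in RIPK2 (1.44 to 1.77), 1.71 in RIPK3 (1.55 to 1.89) and 1.43 in RIPK4 (1.29 to 1.59). EPHB4, the receptor of veins that pairs with ephrin-B2 on arteries, was at 21.8 RPKM in Wnt3a, 18.4 in RIPK1, 27.9 in RIPK2, 27.5 in RIPK3, 21.9 in RIPK4 and 17.7 in Vector. The libraries fell into pairs within counting error: RIPK2 with RIPK3, RIPK4 with Wnt3a, and RIPK1 with Vector. EPHB4 was 1.58-fold above Vector in RIPK2 (1.49 to 1.68) and 1.56-fold in RIPK3 (1.47 to 1.65).

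EPHB1, which in the mouse steers retinal axons at the optic chiasm, and EPHB6, a member whose kinase domain lacks catalytic activity, were near the detection floor. EPHB1 rested on 4 reads in Wnt3a, 2 in RIPK1, 1 in RIPK2, 1 in RIPK3, 5 in RIPK4 and 3 in Vector. EPHB6 had 2 reads in Wnt3a, RIPK1 and RIPK2, 1 in RIPK4 and none in RIPK3 or Vector. A count of 0 allows up to 3 reads, which corresponds to 0.0318 to 0.036 RPKM for EPHB6 over the 6 libraries, so no difference in either gene was detectable at this depth.

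For the counts that follow, a gene was called 2-fold apart where its difference in log2(RPKM + 1) was at least 1 in size, and the share so called among all 11881 genes that averaged 1 RPKM or more is given beside each count. All 10 members were counted, of which 8 pass that level. In Wnt3a against Vector, 1 member was at least 2-fold higher (EPHB3, difference 1.0; all genes 0.673%) and 2 were at least 2-fold lower (EPHA3 at -1.15 and EPHA7 at -1.11; all genes 1.43%). EPHB3 sat on the threshold, with 0.98 once the libraries were rescaled by their median ratio. In RIPK1 no member was 2-fold higher (all genes 0.295%) or lower (0.547%), and EPHA1 at -0.63 was farthest from 0.

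In RIPK2 against Vector no member was 2-fold higher (all genes 1.6%) and 1, EPHA3 at -1.26, was 2-fold lower (0.699%). RIPK3 gave the same counts, with no member higher (all genes 1.48%) and EPHA3 at -1.32 lower (0.581%). RIPK2 and RIPK3 share the Vector library as their baseline, so these counts are not independent of each other. In RIPK4 against Vector no member was 2-fold higher (all genes 0.404%) or lower (0.387%) and EPHB3 came nearest at 0.87.

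A threshold of 1.5-fold took in more receptors. In RIPK2, 5 members were higher (EPHA1, EPHA2, EPHB2, EPHB3 and EPHB4; all genes 7.57%) and 1 was lower (EPHA3; 6.51%). In RIPK3 the members called were the same by name, 5 higher (all genes 6.03%) and 1 lower (3.36%). In Wnt3a, EPHA2, EPHB2 and EPHB3 were higher, 3 of 10 members (all genes 7.95%), and EPHA3 and EPHA7 lower (8.87%). In RIPK4, EPHA2 and EPHB3 were higher (all genes 4.92%) and no member lower (3.08%). In RIPK1 no member was higher (0.901%) and EPHA1 was lower (1.76%). The counts of higher members in RIPK2, RIPK3, Wnt3a and RIPK4 fell once the trend of the differences on transcript GC content was removed. At 1.5-fold there was then 1 member higher in RIPK2 (EPHA2), and 0 in RIPK3, Wnt3a and RIPK4. The lower calls were kept: EPHA3 in RIPK2 and RIPK3, EPHA1 in RIPK1, and EPHA3 and EPHA7 in Wnt3a. EPHA1 was then called lower in Wnt3a as well. No share of all genes is given for the counts after removal, which moves the differences of other genes too. The fall in the counts is therefore not read as particular to the receptors.

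The median difference from Vector of the 8 receptors with a mean of at least 1 was 0.28 in Wnt3a, 0.11 in RIPK1, 0.61 in RIPK2, 0.61 in RIPK3 and 0.22 in RIPK4. The medians of all 11881 genes were 0.04 in Wnt3a, 0.01 in RIPK1, -0.01 in RIPK2, 0.02 in RIPK3 and 0.05 in RIPK4. Of those 8 receptors, 5 stood above Vector in Wnt3a, 6 in RIPK1, 5 in RIPK2, 5 in RIPK3 and 5 in RIPK4. Among all genes 53.3% stood above Vector in Wnt3a, 52.2% in RIPK1, 49.1% in RIPK2, 52.2% in RIPK3 and 55.6% in RIPK4.

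RIPK4 and Wnt3a, the libraries with the highest AXIN2, were also set against each other without Vector. No member was 2-fold higher in RIPK4 than in Wnt3a (all genes 0.303%) or lower (0.143%). At 1.5-fold EPHA3 was higher (all genes 1.38%) and no member lower (0.665%), and 4 of the 8 receptors averaging 1 RPKM or more were higher in RIPK4 at any size, against 54.9% of all genes. EPHA3 was 1.89-fold higher in RIPK4 (1.75 to 2.06) and EPHA7 1.55-fold higher (1.43 to 1.69), at 13.8 and 10.8 RPKM in RIPK4 against 7.29 and 6.97 RPKM in Wnt3a. EPHA1 was 1.18-fold higher (1.08 to 1.3). With the GC trend removed the differences in log2(RPKM + 1) were 0.72 for EPHA3, 0.38 for EPHA7 and 0.26 for EPHA1. As deposited they were 0.84, 0.57 and 0.23. EPHB2 had a RIPK4 to Wnt3a ratio of 0.797 (0.729 to 0.87), EPHB3 of 0.886 (0.743 to 1.06) and EPHB4 of 1.0 (0.944 to 1.06). For EPHB3 and EPHB4 the interval included 1.

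**Figure D2:**
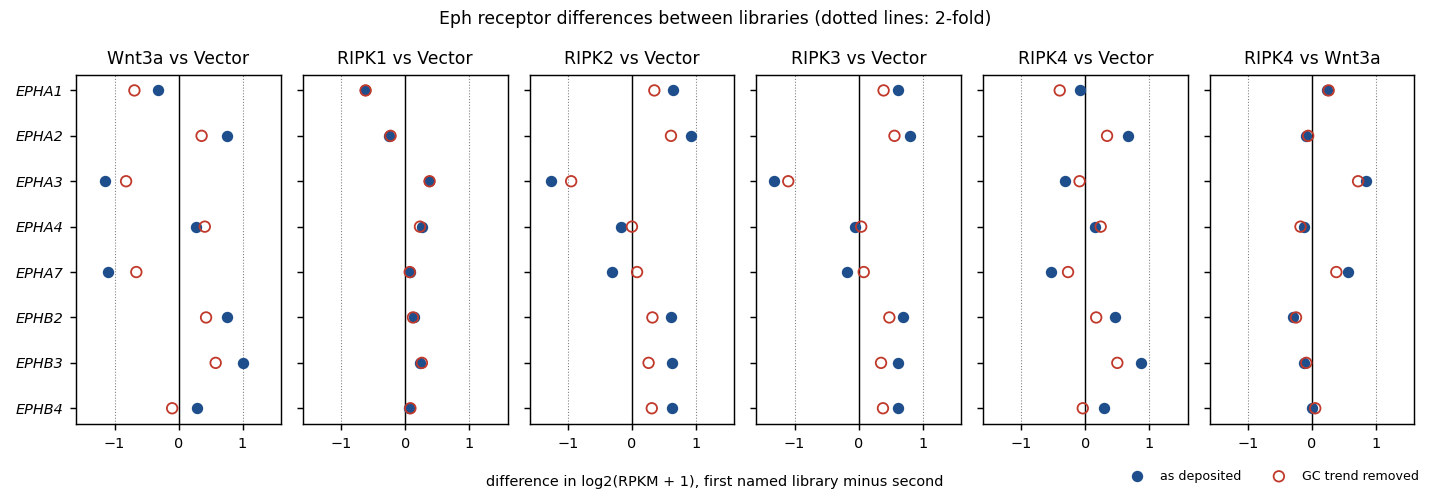
Differences in log2(RPKM + 1) of 8 Eph receptors (rows) in 6 comparisons (panels), as deposited (filled) and after removal of the trend on transcript GC content (open), with dotted lines at 2-fold. EPHA3 lies left of -1 in Wnt3a, RIPK2 and RIPK3 as deposited, and after removal only in RIPK3.

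The GC content of the transcripts ran with several of these differences. Over 11779 genes, Spearman's correlation of the difference from Vector with transcript GC content was 0.703 in Wnt3a, -0.0728 in RIPK1, 0.673 in RIPK2, 0.554 in RIPK3 and 0.68 in RIPK4, a description across genes that share libraries. For RIPK4 against Wnt3a the correlation was -0.336. The receptors split by composition. EPHA1, EPHA2, EPHB2, EPHB3 and EPHB4 have transcripts of 58.1 to 62.2% GC, and EPHA3, EPHA4 and EPHA7 of 37.9 to 44.8%. In RIPK2 all 5 of the GC-rich receptors stood above Vector (0.61 to 0.93) and all 3 of the others below it (-1.26 to -0.17). Each gene's difference was then measured from the running median of genes of like GC content. The 5 GC-rich receptors were above that median in RIPK2 (0.26 to 0.61) and in RIPK3 (0.35 to 0.56). In Wnt3a and in RIPK4, 3 of them were above it and 2 below. Of the 3 others, 2 were above it and 1 below in RIPK2 and in RIPK3.

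The same step moved single receptors by different amounts. EPHA3 became -0.82 in Wnt3a, -0.95 in RIPK2 and -1.1 in RIPK3, so that of the 2-fold calls the one in RIPK3 was left. EPHA7 became -0.66 in Wnt3a, and its differences of -0.31 in RIPK2 and -0.18 in RIPK3 both became 0.08. EPHB3 became 0.58 in Wnt3a and 0.5 in RIPK4, and EPHB4 changed sign, to -0.1 in Wnt3a and -0.04 in RIPK4. EPHA1 became -0.69 in Wnt3a, larger in size than its difference of -0.32 as deposited. The medians of the 8 receptors became 0.13 in Wnt3a, 0.10 in RIPK1, 0.28 in RIPK2, 0.36 in RIPK3 and 0.07 in RIPK4. Whether GC content has a part in these differences beyond running with them was not tested.

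**Figure D3:**
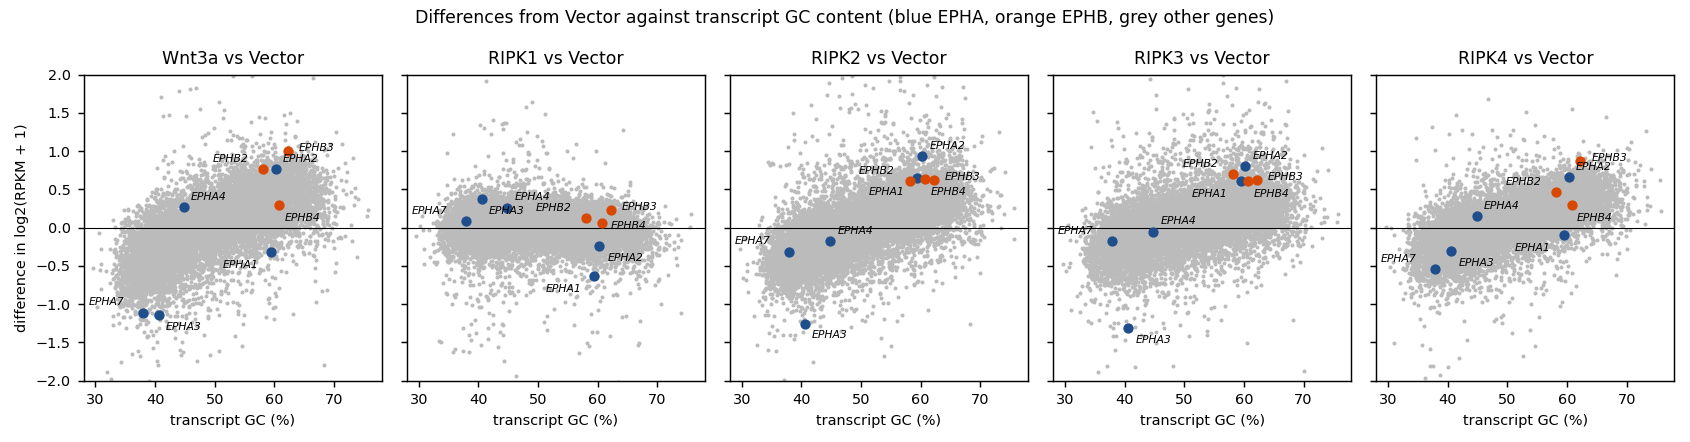
Difference from Vector in log2(RPKM + 1) (vertical axis, cut at -2 and 2) against transcript GC content in percent (horizontal axis) for 11779 genes (grey), with EphA receptors in blue and EphB receptors in orange, 1 panel for each library. The grey cloud tilts upward in all panels but RIPK1, and EPHA3 lies at or below its lower edge in Wnt3a, RIPK2 and RIPK3.

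Summed over the 10 members, Eph receptor transcripts came to 93.6 RPKM in Wnt3a, 94.6 in RIPK1, 118 in RIPK2, 117 in RIPK3, 102 in RIPK4 and 94.1 in Vector. The sums in Wnt3a, RIPK1 and Vector were thus close, but their make-up was not. EphB receptors made up 40.6% of the sum in Wnt3a, 29.5% in RIPK1, 35.2% in RIPK2, 35.9% in RIPK3, 34.6% in RIPK4 and 27.6% in Vector. EPHA3 and EPHA7 together made up 15.2% in Wnt3a, 42.3% in RIPK1, 16.5% in RIPK2, 17.6% in RIPK3, 24.3% in RIPK4 and 35.7% in Vector. EPHA1, EPHA2 and EPHB4 together held 62.2% in Wnt3a, 42.5% in RIPK1, 69.1% in RIPK2, 66.9% in RIPK3, 58.3% in RIPK4 and 51.3% in Vector. These shares are of RPKM as deposited, with the GC trend not removed. EPHA3 and EPHA7 have transcripts of 40.6% and 37.9% GC, and EPHA1, EPHA2 and EPHB4 of 59.4%, 60.3% and 60.8%. Spearman's correlation of the differences from Vector with GC content was 0.703 in Wnt3a and -0.0728 in RIPK1. The part of that trend in the shares was not tested. Epithelial markers, which here means KRT8 and KRT18, summed to 268 RPKM in Wnt3a, 180 in RIPK1, 298 in RIPK2, 320 in RIPK3, 270 in RIPK4 and 233 in Vector, with EPCAM and CDH1 near 0. Fibroblast markers summed to 240 RPKM in Wnt3a, 188 in RIPK1, 270 in RIPK2, 283 in RIPK3, 248 in RIPK4 and 212 in Vector, but did not move as 1 list. COL1A1, a collagen chain, was at 60.5 RPKM in Wnt3a, 28.1 in RIPK1, 82.6 in RIPK2, 83.0 in RIPK3, 52.8 in RIPK4 and 32.6 in Vector. POSTN, a matrix protein, was at 31.3 RPKM in Wnt3a, 64.9 in RIPK1, 24.4 in RIPK2, 27.5 in RIPK3, 44.9 in RIPK4 and 66.7 in Vector.

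Endothelial markers summed to 54.6 RPKM in Wnt3a, 56.8 in RIPK1, 67.4 in RIPK2, 73.2 in RIPK3, 51.1 in RIPK4 and 54.6 in Vector. VWF stayed at or below 0.128 RPKM in all libraries. The median difference from Vector of the 5 endothelial markers averaging 1 RPKM or more was 0.76 in RIPK2 and 0.78 in RIPK3 (0.72 in RIPK2 and 0.79 in RIPK3 with the GC trend removed), the libraries in which EPHA1 and EPHB4 were highest. ESAM, an endothelial adhesion molecule, was at 3.71 RPKM in Wnt3a, 1.56 in RIPK1, 6.78 in RIPK2, 6.31 in RIPK3, 3.13 in RIPK4 and 2.03 in Vector. CDH5 was at 10.9 RPKM in RIPK2 and 11.5 in RIPK3, against 5.4 in Vector, and KDR at 12.3 RPKM in RIPK2 and 12.4 in RIPK3, against 6.84 in Vector. TEK was at 9.59 RPKM in RIPK2 and 10.6 in RIPK3, against 11.1 in Vector. PECAM1, the most abundant of the 5, was at 27.7 RPKM in RIPK2 and 32.3 in RIPK3, against 29.2 in Vector. Of the 5 markers, 3 stood above Vector in RIPK2 and 4 in RIPK3. Of the neural markers, MAP2 was at 5.87 RPKM in Wnt3a, 12.1 in RIPK1, 2.96 in RIPK2, 3.62 in RIPK3, 6.74 in RIPK4 and 7.34 in Vector. TUBB3 went the other way in RIPK2 and RIPK3, at 25.9 and 22.9 RPKM against 12.5 in Vector. It was at 18.9 RPKM in Wnt3a, 12.6 in RIPK1 and 16.2 in RIPK4. The part of these cell type markers in the make-up of the receptors was not tested.

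**Figure D4:**
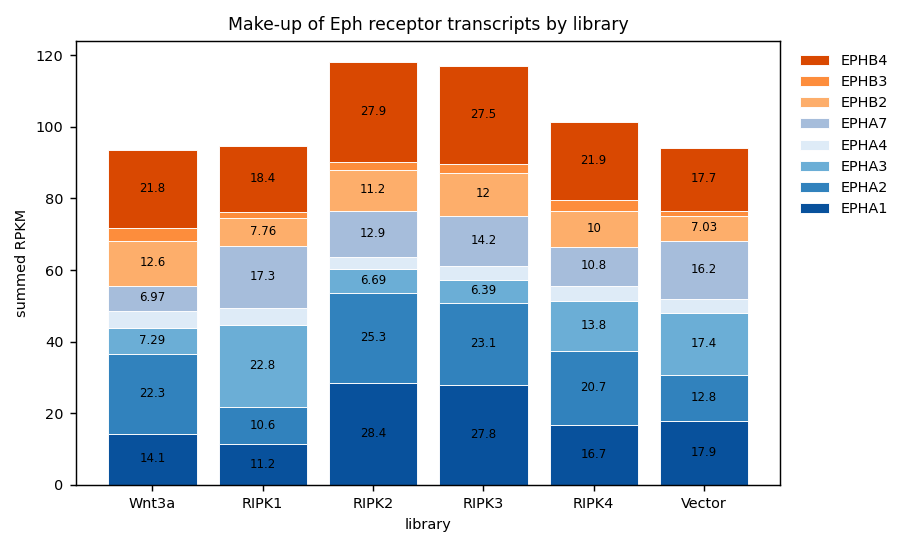
Summed RPKM (vertical axis, from 0) of the 8 Eph receptors with a mean RPKM of at least 1 in each library, EphA in blues and EphB in oranges, with the RPKM printed in segments above 5. The columns of Wnt3a, RIPK1 and Vector are of like height, while the EPHA3 and EPHA7 segments are short in Wnt3a and long in RIPK1 and Vector. RPKM is as deposited, with the GC trend not removed.

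By their widest range over the libraries in log2(RPKM + 1), the ligands were more even than the receptors, with 0.78 for EFNA3 against 1.69 for EPHA3. No ephrin was 2-fold apart in any of the 6 comparisons. Among all genes 0.143% to 1.6% were so called in each direction, so none among so few genes is near that share. EFNB2, the arterial partner of EPHB4, was the most abundant ephrin in all 6 libraries, at 32.5 RPKM in Wnt3a, 38.2 in RIPK1, 25.8 in RIPK2, 26.8 in RIPK3, 34.2 in RIPK4 and 37.4 in Vector. Its ratio to Vector was 0.69 in RIPK2 (0.651 to 0.73) and 0.716 in RIPK3 (0.677 to 0.757), the libraries in which EPHB4 was highest. An antisense gene covers 26.2% of the EFNB2 exons, and its reads cannot be told apart from those of EFNB2. EFNA5, a high-affinity ligand of EPHA3, was at 19.3 RPKM in Wnt3a, 24.3 in RIPK1, 16.4 in RIPK2, 17.7 in RIPK3, 18.8 in RIPK4 and 19.7 in Vector. EFNA5 in RIPK1 stood 1.24-fold above Vector (1.17 to 1.31), and EPHA3 was highest in that library as well.

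EFNA3 and EFNB3 were highest in the Wnt3a and RIPK4 libraries. EFNA3, a ligand carried by astrocytes in the mouse hippocampus, was at 6.04 RPKM in Wnt3a, 4.06 in RIPK1, 3.33 in RIPK2, 3.39 in RIPK3, 5.57 in RIPK4 and 3.1 in Vector. It was 1.95-fold above Vector in Wnt3a (1.54 to 2.47) and 1.8-fold in RIPK4 (1.42 to 2.28), with the reservation that 44.7% of its exons are shared with a read-through gene on the same strand. EFNB3, a barrier to axons at the midline of the spinal cord in the mouse, was at 14.9 RPKM in Wnt3a, 10.7 in RIPK1, 9.93 in RIPK2, 11.1 in RIPK3, 12.6 in RIPK4 and 8.56 in Vector. It was 1.74-fold above Vector in Wnt3a (1.55 to 1.94) and 1.47-fold in RIPK4 (1.31 to 1.66). Removal of the GC trend brought the EFNA3 difference to 0.39 in Wnt3a, against 0.78 as deposited, and that of EFNB3 to 0.38, against 0.73.

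EFNB1, the X-linked ligand behind craniofrontonasal syndrome, was at 10.3 RPKM in RIPK1 and between 7.1 and 7.89 RPKM elsewhere, 1.34-fold above Vector in RIPK1 (1.19 to 1.51). EFNA4 lay between 12.4 and 15.9 RPKM and EFNA1, the usual ligand of EPHA2, between 1.23 and 2.06 RPKM. EFNA4 was 1.2-fold above Vector in RIPK3 (1.03 to 1.4), and the RIPK3 to Vector ratio of EFNA1 was 1.36, with an interval that included 1 (0.973 to 1.9). EFNA2 was under 1 RPKM in all libraries, at most 0.639 RPKM in RIPK1 and listed at 0 in Vector. The 8 ephrins summed to 95.8 RPKM in Wnt3a, 102 in RIPK1, 80.4 in RIPK2, 85 in RIPK3, 95.6 in RIPK4 and 91.2 in Vector. In RIPK2 and RIPK3, then, the summed receptors were highest and the summed ligands lowest among the 6 libraries.

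**Figure D5:**
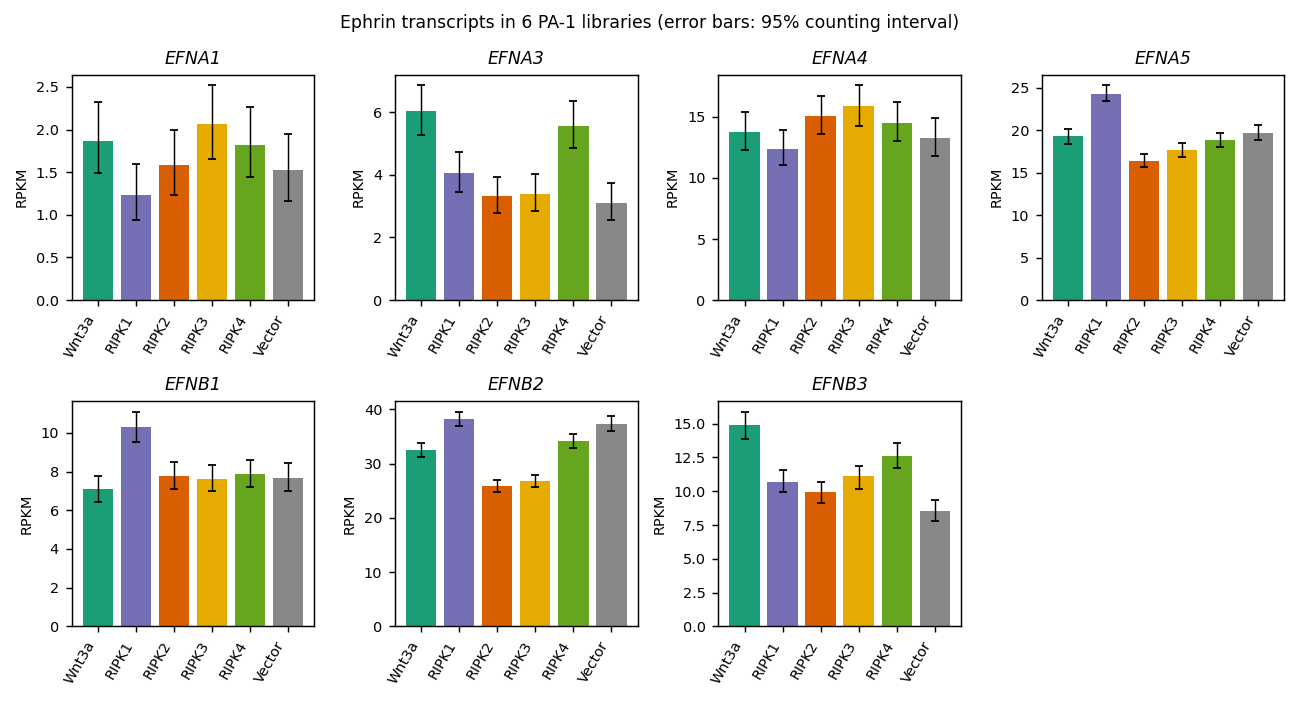
RPKM (vertical axes, from 0) of the 7 ephrins with a mean RPKM of at least 1, with 1 bar for each library and error bars for the 95% counting interval. EFNB2 is lowest in RIPK2 and RIPK3, EFNA3 and EFNB3 are highest in Wnt3a and RIPK4, and EFNA5 and EFNB1 are highest in RIPK1.

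Downstream of the receptors, 40 of 47 adaptors and effectors had a mean RPKM of at least 1 (the list holds the NCK and CRK adaptors, the VAV exchange factors and RHOA). None of the 40 was 2-fold apart from Vector in any library, near the share of all genes so called in each direction (0.295% to 1.6%). The median difference of the 40 was 0.06 in Wnt3a, 0.04 in RIPK1, -0.01 in RIPK2, 0.1 in RIPK3 and 0.14 in RIPK4. With the GC trend removed it was 0.0 in Wnt3a, 0.01 in RIPK1, 0.03 in RIPK2, 0.1 in RIPK3 and 0.02 in RIPK4. Of 11 proteases and phosphatases that act on Eph receptors or ephrins, 10 passed that level. Of these, 1 was 2-fold apart, higher in RIPK2 (all genes 1.6%) and in RIPK3 (1.48%). This was MMP14, a membrane-bound matrix metalloproteinase known to cleave EPHA2, at 38.1 RPKM in Wnt3a, 33.1 in RIPK1, 71.5 in RIPK2, 78.8 in RIPK3, 41.8 in RIPK4 and 32.2 in Vector. It was 2.22-fold above Vector in RIPK2 (2.11 to 2.34) and 2.45-fold in RIPK3 (2.33 to 2.58). With the GC trend removed its difference in log2(RPKM + 1) was 0.84 in RIPK2, under 2-fold, and 1.06 in RIPK3.

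Wnt target genes were high in the Wnt3a and RIPK4 libraries. Of the 20 genes listed, 15 reached a mean of 1 RPKM. Of those, 10 were 2-fold above Vector in Wnt3a (all genes 0.673%) and 6 in RIPK4 (0.404%). There were 1 in RIPK2 (1.6%), 1 in RIPK3 (1.48%) and none in RIPK1 (0.295%). The median difference of the 15 was 1.15 in Wnt3a, -0.11 in RIPK1, 0.12 in RIPK2, 0.18 in RIPK3 and 0.77 in RIPK4. LEF1, a partner of beta-catenin on DNA, was at 7.31 RPKM in Wnt3a, 2.95 in RIPK1, 3.92 in RIPK2, 4.09 in RIPK3, 4.73 in RIPK4 and 2.75 in Vector. NKD1, an inhibitor of Dishevelled, was at 23.4 RPKM in Wnt3a and 14.8 in RIPK4, against 4.39 in Vector, and at 3.98 to 5.57 RPKM elsewhere. The homeobox gene MSX1 was at 49.8 RPKM in Wnt3a, 3.71 in RIPK1, 17.4 in RIPK2, 18.2 in RIPK3, 37.6 in RIPK4 and 5.9 in Vector. CDX1, a homeobox gene of the gut and tail, was at 18.8 RPKM in Wnt3a and 7.61 in RIPK4, against 0.0327 in Vector, and did not pass 0.237 RPKM in RIPK1, RIPK2 or RIPK3. The other targets that reached 2-fold were TCF7 (1.04 in Wnt3a and 0.62 in RIPK4, as differences from Vector), the Wnt deacylase NOTUM (1.95 in Wnt3a and 1.45 in RIPK4), the ubiquitin ligase RNF43 (1.64 in Wnt3a and 1.05 in RIPK4), the gut homeobox gene CDX2 (2.53 in Wnt3a and 2.02 in RIPK4) and TNFRSF19 (1.0 in Wnt3a and 0.77 in RIPK4). EPHB3 shared with AXIN2 and NKD1 the highest values in Wnt3a and RIPK4. In RIPK2 and RIPK3 EPHB3 parted from them, with ratios to Vector of 1.95 and 1.96. Those of AXIN2 were 0.959 and 1.14, and those of NKD1 1.19 and 1.27. With the GC trend removed the EPHB3 difference was 0.58 in Wnt3a and 0.5 in RIPK4. For AXIN2 these were 0.98 and 0.69, and for NKD1 1.79 and 1.22. EPHB2 in Wnt3a was 1.05-fold RIPK3, with an interval that included 1 (0.965 to 1.14).

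For the 5 receptors with a range of at least 1 in log2(RPKM + 1), the protein-coding genes of the nearest pattern were taken by the root mean square distance of their 5 differences from Vector, among 11381 genes. For EPHA3 these were LGR4, a receptor for R-spondins, at a distance of 0.173, FEZF1, a forebrain zinc finger factor, at 0.186, and FILIP1, which interacts with filamin A, at 0.218. FEZF1 has a transcript GC content of 53.8%, LGR4 of 42.1% and EPHA3 of 40.6%. For EPHA7 they were TAF13, KRCC1 and ZNF518A, at 0.124 to 0.132 and with 34.7 to 37.8% GC. For EPHA1 they were FOSL1 at 0.1, STAT2 at 0.116 and APOL2 at 0.129, and for EPHA2 TMEM8A at 0.086, CHAC1 at 0.091 and CRIP2 at 0.097. For EPHB3 they were LRWD1, PITPNM1 and SDC3, at 0.077 to 0.097. The 5 differences share the Vector library, so a short distance describes these 6 libraries and no more.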

How the data were processed

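RNA of PA-1 cells was sequenced in 6 libraries, 1 for each group, taken from the transfection field of the labels. The deposited values are the authors' RPKM per gene, 1 column for each library, per the file headers; GSNAP, DESeq and hg19 are named in the submitters' processing notes, while versions, roles, gene annotation, counting rule and strand use are absent from those notes and otherwise not given in the sources used here. RPKM was used as deposited. Reads were recovered from the 5 printed digits by trying gene lengths of 15 to 30000 bases until all 6 values were whole reads within rounding, which solved 17949 genes (87.6%) and 98.8% of the 11881 genes averaging 1 RPKM or more. The recovery was tested on simulated data.

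Ratios carry exact 95% binomial intervals from those reads; reads carry no molecular identifiers, so intervals and the floor of 3 reads cover counting error only. Differences are of log2(RPKM + 1), which understates the change of low genes. Transcript length and GC content came from GENCODE 29, and promoter windows from RefSeq (GRCh38.p14); the GC trend was a running median over 501 genes. Members, gene lists and rules were chosen with earlier results of these data known. Text names all Eph receptors and ephrins, 5 Wnt targets, the transfected kinases, other list genes averaging 1 RPKM or more with a 2-fold difference, and the 3 nearest-pattern genes per receptor of wide range; ZYX was named for its overlap with EPHA1 and single marker genes for their cell type. Alternatives, with 1 pairing of them added later, were a pseudocount of 0.1, median-ratio scaling, GC trend removal, a level filter and a 1.5-fold threshold. Python 3.11.15, numpy 2.4.6, pandas 2.3.3, scipy 1.17.1 and matplotlib 3.10.9 were used.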

Additional observations from a re-analysis of the deposited data

How the results depend on the processing

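With 1 library for each group there is no spread between replicates, and Wnt3a also differs from the other groups in agent and time. No paired analysis was possible because each group has 1 library. With the GC trend removed, the Wnt3a library had 0 members 2-fold higher, against 1 as deposited, and 0 lower, against 2, and RIPK2 had 0 lower, against 1; the cause was not tested. Median-ratio scaling left 0 members 2-fold higher in Wnt3a. Removal of the GC trend together with the 1.5-fold threshold, chosen after seeing the data, gave 0 higher in Wnt3a, 1 in RIPK2, 0 in RIPK3 and RIPK4, and 1 in RIPK4 against Wnt3a, and 1 lower in RIPK1. For the counts with the GC trend removed no share of all genes is given, so they are not read as particular to the receptors. A pseudocount of 0.1 gave 1 member 2-fold higher in RIPK4 (EPHB3), against 0. At 1.5-fold there were 3 higher in Wnt3a, 5 in RIPK2, 5 in RIPK3, 2 in RIPK4 and 1 in RIPK4 against Wnt3a, and 1 lower in RIPK1. Each other count of members stayed within 1.5 times its value as deposited, the level filter included. Over 108 differences of Eph receptors and ephrins, GC trend removal changed the sign of 20, scaling of 2 and the pseudocount of none. The 108 include EPHB1, EPHB6 and EFNA2, which average under 1 RPKM. GC trend removal left their differences as deposited, so those could not change sign under it. Depth limits EPHB1 and EPHB6, which rest on 5 reads or fewer in each library; the reads behind EFNA2 could not be settled.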
